A study of Mus musculus with 16 samples.

Results

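The RUNX transcription factor genes Runx1, Runx2 and Runx3 and the gene of their common partner, Cbfb, were examined in ATAC-seq data. In this assay a transposase, Tn5, inserts sequencing adapters where chromatin is accessible. Members were the regions that overlapped the RefSeq body of a gene or the 20 kb on either side, among regions built by joining the peak lists of all 16 libraries and kept when called in at least 2. There were 89 such regions of 83972 in all. Of the 89, 35 belonged to Runx1, 34 to Runx2, 14 to Runx3 and 6 to Cbfb.

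The cells came from bone marrow of male C57Bl/6 mice after removal of mature cells positive for Gr1, Ter119, B220, CD4 or CD3, which the submitters label haematopoietic stem cells. Diabetic mice had received streptozotocin, a toxin of the insulin-producing beta cells, and control mice had no treatment, so the drug and diabetes cannot be told apart. Each of 4 diabetic and 4 control mouse samples was divided. The IL-1β portion received interleukin-1β at 10 ng/mL during 6 h of culture, and the baseline portion was lysed without culture. This gave 4 libraries each of diabetic IL-1β, diabetic baseline, control IL-1β and control baseline cells. Stimulation and culture came together in every mouse, so IL-1β and 6 h of culture cannot be told apart. The labels do not say whether a mouse sample was 1 animal or a pool.

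RUNX proteins bind DNA through the runt domain, and CBFβ, which does not touch DNA itself, joins that domain and strengthens its binding. In blood, Runx1 is needed for stem cells to arise from the embryonic endothelium and later shapes the megakaryocyte, lymphoid and myeloid lineages. Runx2 is best known as the regulator of bone-forming osteoblasts, and Runx3 as a regulator of cytotoxic T cells and natural killer cells. Vertebrate Runx genes have a distal and a proximal promoter far apart, whose transcripts differ in the protein's first residues. Runx1 also holds an intronic enhancer active in stem cells; its coordinates are not in the files, so no region was assigned to it.

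Each of the 3 factor genes has a promoter that carries the letters RUNX proteins themselves recognise. RefSeq's promoter table for GRCm38.p6, whose chromosomes have the coordinates of mm10, lists a distal and a proximal start for Runx1 and Runx3 and 1 start each for Runx2 and Cbfb. The distal Runx1, the Runx2 and the distal Runx3 sequences are shown because they share an 18-letter run. A called region covered that run at Runx1 and Runx3 and not at Runx2. Each sequence begins 250 bases before the start and ends 50 bases after it, on the strand of the gene. Capitals mark ACCACA and ACCGCA on either strand (TGTGGT and TGCGGT on the other), and no marked site overlaps another.
Runx1 distal, chr16:92826025-92826324, minus strand: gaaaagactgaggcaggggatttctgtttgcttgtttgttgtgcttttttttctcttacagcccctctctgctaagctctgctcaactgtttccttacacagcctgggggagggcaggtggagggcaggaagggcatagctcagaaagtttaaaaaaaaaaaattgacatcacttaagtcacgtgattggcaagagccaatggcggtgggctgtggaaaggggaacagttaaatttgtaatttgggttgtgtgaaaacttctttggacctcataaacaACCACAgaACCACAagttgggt
Runx2, chr17:44814578-44814877, minus strand: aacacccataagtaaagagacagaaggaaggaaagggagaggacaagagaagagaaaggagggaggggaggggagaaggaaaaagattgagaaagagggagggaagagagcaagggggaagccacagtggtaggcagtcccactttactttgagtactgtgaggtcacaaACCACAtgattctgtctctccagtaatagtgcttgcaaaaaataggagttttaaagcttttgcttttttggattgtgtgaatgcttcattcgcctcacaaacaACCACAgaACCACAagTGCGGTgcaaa
Runx3 distal, chr4:135120395-135120694, plus strand: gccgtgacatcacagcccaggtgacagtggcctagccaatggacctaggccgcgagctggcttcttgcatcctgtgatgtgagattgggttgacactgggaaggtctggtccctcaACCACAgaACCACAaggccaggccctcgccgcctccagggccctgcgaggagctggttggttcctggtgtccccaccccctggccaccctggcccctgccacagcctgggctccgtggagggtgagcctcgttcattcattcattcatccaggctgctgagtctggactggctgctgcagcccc

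The longest run that these 3 promoters share is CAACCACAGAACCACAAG, which holds ACCACA in tandem. It began 26 bases after the distal start of Runx1, 21 bases after the start of Runx2, and at position -136 from the distal start of Runx3. Only 4 of 32851 promoters in the table, 0.0122%, hold it on either strand. The other one is Gm16225, whose window overlaps that of Runx3 on the opposite strand, so the run stands at 3 places. It was picked from these promoters, so its presence in them is not a separate result. ACCACA alone was in 16.8% of all promoters and at least 2 copies of it in 1.78%, while ACCGCA was in 6.45%. These motifs have 6 letters and the run 18, so their shares are not comparable with that of the run. The proximal promoters of Runx1 and Runx3 and the promoter of Cbfb hold neither motif. Those 3 are rich in G and C (69.0%, 77.3% and 69.7%), against 45.0% for distal Runx1, 45.3% for Runx2 and 63.7% for distal Runx3. A match describes the letters in these windows and does not show a bound site.

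At Runx1 and Runx3 the tandem run lay inside a region called in 16 of 16 libraries. At Runx2 it lay in none: the nearest region, chr17:44814696-44814881, was 90 bp away and was called in 2 of 16 libraries.

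The 16 lists held 920021 distinct peaks, between 37543 and 72525 per library. Values below are whole reads at the highest summit of a region, recovered from the authors' fold and p-value and scaled so that every library has the same median over the 24955 regions called in all 16. Unscaled, that median ran between 27.0 and 58.0 reads, which limits the precision at weak regions. In bulk chromatin, fewer cells with an open region and less signal per cell cannot be told apart. Of the stem and progenitor marker genes 9 of 10 had a region called in all libraries (Procr had none). So had 10 of 10 mature neutrophil, 7 of 7 granulocyte-monocyte progenitor, 7 of 7 erythroid and 6 of 6 monocyte genes, so regions at marker genes of several lineages were open beside those of stem cells. Osteoblast and stroma genes had such a region in 2 of 7, and Cxcl12 had no region.

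**Figure D1:**
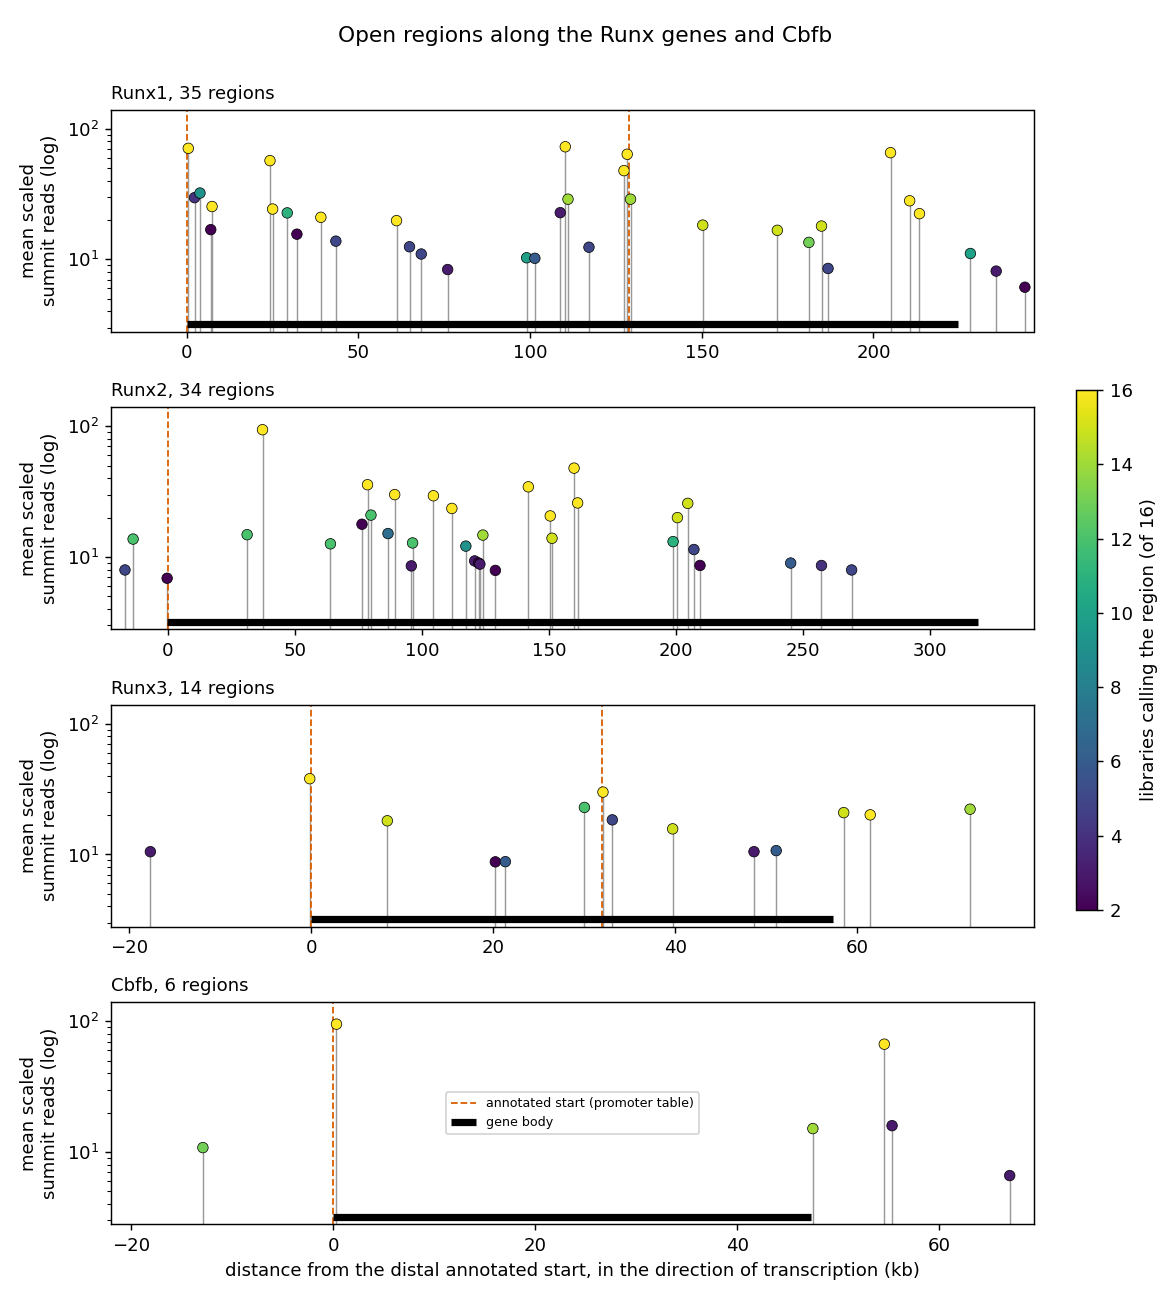
Regions along each gene, placed by distance from the distal annotated start in the direction of transcription (kb). The height is the mean number of scaled summit reads over the libraries that called the region (log axis), and the colour is the number of calling libraries of 16. Runx1 and Runx3 have a region called in all 16 libraries at both annotated starts (dashed), and Cbfb has one at its start. The Runx3 regions hold fewer reads than those of Runx1 and Cbfb. Runx2 has a weak region called in 2 libraries at its listed start.

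Runx1 had an open region at both of its starts, which lie 128.7 kb apart. The distal one, chr16:92824839-92826389, spanned 1551 bp. Its highest summit lay between -22 and 33 bp of the annotated start in all 16 libraries. It held 77.4, 71.0, 77.3 and 55.7 reads in diabetic IL-1β cells and 75.5, 71.0, 64.1 and 71.2 in diabetic baseline cells. The counts were 66.2, 67.7, 80.9 and 70.2 reads in control IL-1β cells and 68.3, 74.3, 63.6 and 77.5 in control baseline cells. All 4 groups overlapped. The deposited fold over background at this summit averaged 7.46 ± 0.835 in diabetic IL-1β, 7.5 ± 0.483 in diabetic baseline, 7.55 ± 0.559 in control IL-1β and 7.92 ± 0.785 in control baseline cells (SD, n = 4 each). The proximal region, chr16:92697158-92698423, averaged 69.2 ± 4.79 reads in diabetic IL-1β, 72.1 ± 9.11 in diabetic baseline, 57.8 ± 7.96 in control IL-1β and 56.1 ± 2.40 in control baseline cells (SD, n = 4 each).

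By mean reads, the strongest region of Runx1 lay at neither start. It was chr16:92715392-92716250 in the gene body, 110.3 kb downstream of the distal start. It held 73.2, 74.8, 69.9 and 73.4 reads in diabetic IL-1β cells and 68.4, 75.7, 71.3 and 72.7 in diabetic baseline cells. Control IL-1β cells had 72.0, 82.6, 63.0 and 67.1 reads and control baseline cells 76.9, 74.3, 65.7 and 83.4, so that all 4 groups overlapped. The mean over all libraries was 72.8 reads here and 70.8 at the distal start, and the libraries of both regions overlapped. A second region of similar size, chr16:92620641-92621574, lay 205.0 kb from the distal start and averaged 65.6 reads. Another, chr16:92801514-92802134, lay 24.2 kb from that start and averaged 57.0 reads. By the deposited fold the region at 205.0 kb averaged highest in Runx1, at 11.6 against 10.1 at 110.3 kb.

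Runx2 had no comparable region at its 1 listed start. A proximal start is not listed for Runx2, so none was assessed. Only control baseline replicates 1 and 2 called chr17:44814696-44814881, with 7.07 and 6.68 reads, and no library of the other 3 groups did. The strongest region inside the Runx2 body, chr17:44776731-44777804, averaged 94.1 reads, but it covers the start of Supt3, which overlaps Runx2 and encodes a subunit of the SAGA coactivator. Position does not assign it to Runx2. It held 98.7, 88.8, 99.4 and 104 reads in diabetic IL-1β cells and 95.6, 92.5, 90.5 and 119 in diabetic baseline cells. Control IL-1β cells had 93.2, 88.0, 84.5 and 86.8 reads and control baseline cells 84.0, 94.4, 85.3 and 101. All 4 groups overlapped. Next came chr17:44654363-44655058, 159.9 kb into the gene, with 47.8 reads on average. It held 46.7, 49.5, 44.2 and 55.7 reads in diabetic IL-1β cells and 51.3, 41.1, 42.5 and 39.3 in diabetic baseline cells, and 47.4, 50.1, 60.7 and 59.9 in control IL-1β cells and 48.7, 50.9, 36.5 and 40.2 in control baseline cells. IL-1β and baseline libraries overlapped, and the change of 0.24 did not pass (95% interval 0.04 to 0.44, limma, Benjamini-Hochberg adjusted p = 0.121). After it came chr17:44735237-44736684, 78.7 kb in, at 27.1 to 46.9 reads over the 16 libraries.

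Runx3 was open at both starts, 31.9 kb apart, with fewer reads than Runx1. The distal region, chr4:135120182-135120746, held 30.8, 47.7, 36.8 and 48.1 reads in diabetic IL-1β cells and 32.2, 48.6, 42.5 and 34.9 in diabetic baseline cells. Control IL-1β cells had 48.3, 31.1, 33.3 and 39.3 reads, and control baseline cells 32.2, 25.1, 35.2 and 42.2. The groups overlapped throughout. Its summit lay between -177 and -131 bp of the start. The tandem run starts at -136, beside the summits. The proximal region, chr4:135152205-135153163, averaged 28.6 ± 3.5, 28.9 ± 6.8, 32.0 ± 7.5 and 30.7 ± 2.87 reads in diabetic IL-1β, diabetic baseline, control IL-1β and control baseline cells (SD, n = 4 each). The only other Runx3 region called in all libraries, chr4:135181823-135182278, lay beyond the 3′ end and averaged 20.1 reads.

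Cbfb had the strongest listed start of the 4 genes. Its region, chr8:105170226-105171734, held 104, 95.3, 103 and 113 reads in diabetic IL-1β cells and 89.6, 75.7, 91.3 and 115 in diabetic baseline cells. Control IL-1β cells had 92.4, 96.1, 98.7 and 90.9 reads, and control baseline cells 82.4, 86.0, 85.3 and 103. The body held little else: a region at its 3′ end, chr8:105217961-105218330, was called in 14 libraries at 15.1 reads. The second region called in all libraries, chr8:105224711-105225726, covers the start of the neighbouring gene D230025D16Rik and averaged 66.8 reads (range 54.1 to 78.5).

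Ordered by mean reads, the listed starts ran Cbfb (95.1), distal Runx1 (70.8), proximal Runx1 (63.8), distal Runx3 (38.0) and proximal Runx3 (30.0). The 1 listed start of Runx2 came last. Over the libraries that called them, neighbours in this order overlapped, except proximal Runx1 with distal Runx3 and proximal Runx3 with Runx2. The ranges were 75.7 to 115 reads for Cbfb and 55.7 to 80.9 for distal Runx1, 51.2 to 84.3 for proximal Runx1, and 25.1 to 48.6 and 18.9 to 42.8 for the Runx3 starts. Every library of either Runx1 start stood above every library of both Runx3 starts. Among all 24955 shared regions, the Cbfb start exceeded 89.1%, distal Runx1 78.1%, proximal Runx1 73.6%, distal Runx3 48.9% and proximal Runx3 36.0%. The deposited fold, which divides by local background, put them in another order. It averaged 12.3 ± 1.22 at Cbfb, 11.6 ± 2.2 at distal Runx3, 7.92 ± 1.31 at proximal Runx1, 7.61 ± 0.638 at distal Runx1 and 5.35 ± 0.708 at proximal Runx3 (SD over 16 libraries). By that measure distal Runx3 stood above both Runx1 starts on average.

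Beyond the starts, the 3 factor genes differed from Cbfb in how many regions they held. Ranks were taken among the 14201 protein-coding genes with at least 3 regions. Runx1 had more regions than 99.6% of these genes, Runx2 than 99.6%, Runx3 than 91.7% and Cbfb than 41.2%. Gene length enters these counts. Per 100 kb of gene and flank, Runx1 had 13.2 regions, Runx2 9.48, Runx3 14.4 and Cbfb 6.87. The median over the same 14201 genes was 9.21. Of the 89 regions, 26 were called in all 16 libraries: 12 of Runx1, 9 of Runx2, 3 of Runx3 and 2 of Cbfb. Over the whole series 29.7% of regions were. Another 22 were called in 12 to 15 libraries, 11 in 6 to 11 and 30 in 2 to 5. In all, 76 lay in the gene bodies, and 6 lay nearest to another gene.

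**Figure D2:**
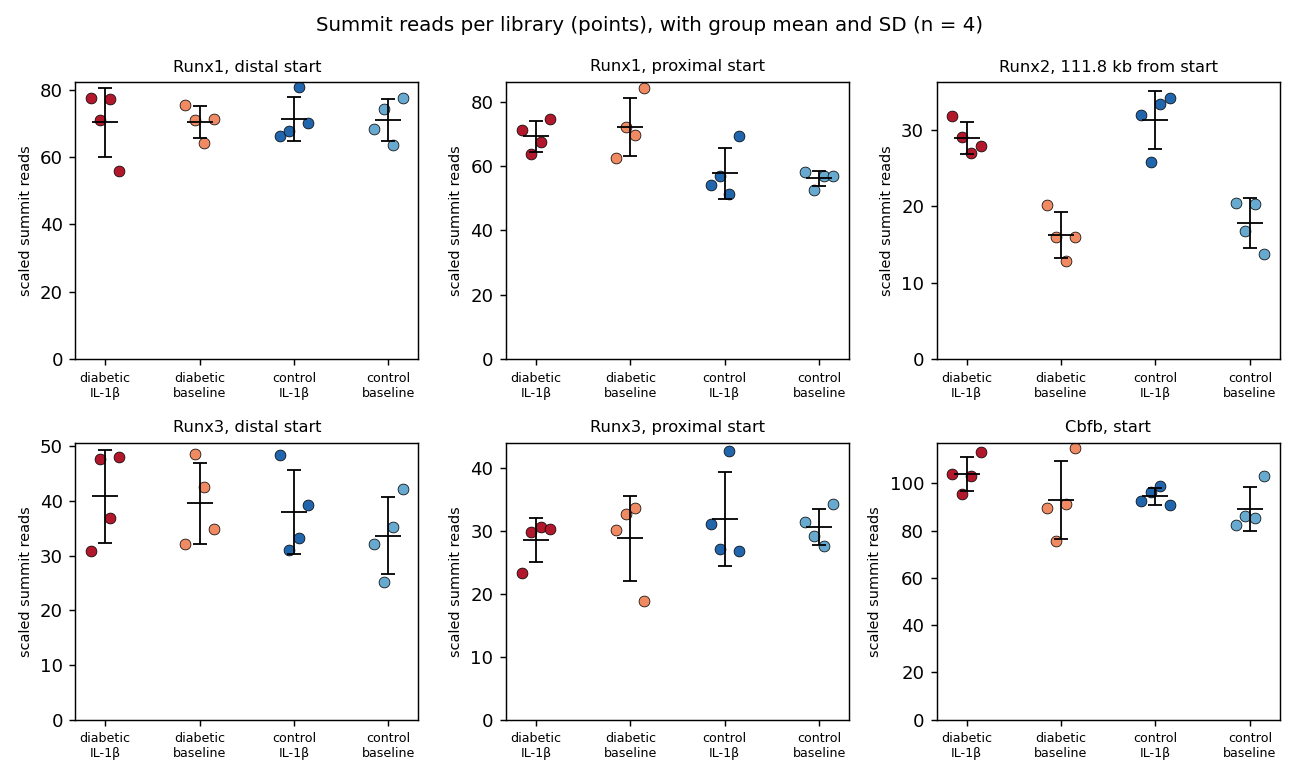
Scaled summit reads per library (points) with group mean and SD (n = 4) at the open starts of Runx1, Runx3 and Cbfb and at the Runx2 region that changed with IL-1β. In the Runx2 panel the lowest IL-1β library (25.7 reads) stands above the highest baseline library (20.4 reads).

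Setting IL-1β against baseline cells asked whether the stimulus and culture changed chromatin at these genes. They changed 1 of the 26 regions called in all libraries, in Runx2. That is 1 risen and 0 fallen, beside 6.42% risen and 3.4% fallen among all 24955 regions (limma, Benjamini-Hochberg adjusted p under 0.05). With libraries scaled by background, 203 regions of the series rose and 2343 fell, against 1603 and 848 here, and 0 members passed. The members' median log2 change was 0.05, and that of all regions 0.03.

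The risen region, chr17:44702286-44703276, lay in the Runx2 body 111.8 kb from its start. It held 31.8, 29.0, 27.0 and 27.9 reads in diabetic IL-1β cells against 20.1, 15.9, 12.8 and 16 in diabetic baseline cells. In control mice it held 31.9, 25.7, 33.3 and 34.1 reads with IL-1β against 20.4, 16.7, 20.3 and 13.7 at baseline. Every IL-1β library stood above every baseline library, which was so for 2.23% of all regions, and reads were higher in 8 of 8 mice.

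The log2 change was 0.84 ± 0.14 (SE, 8 against 8 libraries, limma, Benjamini-Hochberg adjusted p = 0.00022). It was 0.85 ± 0.19 in diabetic mice (limma, adjusted p = 0.0143) and 0.82 ± 0.19 in control mice (limma, adjusted p = 0.0185). Among all regions 2.19% rose in diabetic and 1.78% in control mice. The change in diabetic minus that in control mice was 0.03 (95% interval -0.53 to 0.59, limma, adjusted p = 1). The deposited fold moved the same way. It averaged 8.24 ± 1.06 in diabetic IL-1β cells against 5.91 ± 0.406 in diabetic baseline cells, and 9.42 ± 1.51 in control IL-1β cells against 7.37 ± 1.27 in control baseline cells (SD, n = 4 each).

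This call rests on the scaling. With libraries scaled by background instead, the median of all regions moved to -0.24 and the Runx2 change to 0.57 ± 0.22 (limma, adjusted p = 0.0667); relative to that median it was still upward. Within diabetic mice the call was lost without IL-1β replicate 1 or baseline replicate 3, and within control mice without IL-1β replicate 3 or 4 or baseline replicate 2 or 4. Over both phenotypes it kept its call without any one library, at 0.78 to 0.89. Mature neutrophil marker genes moved in the same comparison: of their 37 shared regions 6 rose and 1 fell, beside 6.42% and 3.4% of all regions. A risen region in the Lcn2 window lay nearest to Ptges2, and the risen one in the Ngp window nearest to Klhl18. Called regions of the mature neutrophil genes made up 1.09 to 1.69 per 1000 in IL-1β libraries against 0.886 to 1.34 in baseline libraries. Their part in the Runx2 result was not tested.

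The Runx1 region at chr16:92620641-92621574 stood just outside the threshold. It held 76.4, 60.8, 78.5 and 63.3 reads in diabetic IL-1β cells against 67.4, 52.3, 54.5 and 34.9 in diabetic baseline cells. Control cells had 64.6, 88.0, 77.3 and 71.3 reads with IL-1β against 68.3, 62.6, 61.6 and 67.7 at baseline. Reads were higher in 7 of 8 mice, and the groups overlapped. The log2 change was 0.32 ± 0.10 (limma, adjusted p = 0.0508), and a fit that paired the portions of each mouse as blocks gave 0.00884 (limma, adjusted p). The deposited fold averaged 11.7 ± 0.575 in IL-1β libraries against 11.5 ± 1.45 in baseline libraries (SD, n = 8 each). The region also passed when diabetic IL-1β replicate 2, diabetic baseline replicate 1 or 4, or control IL-1β replicate 1 was left out.

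None of the open starts passed the IL-1β test. At Runx1 the change was 0.00 (95% interval -0.17 to 0.16) at the distal and -0.01 (-0.17 to 0.15) at the proximal start. For Runx3 it was 0.11 (-0.17 to 0.39) at the distal and 0.02 (-0.26 to 0.31) at the proximal start. At Cbfb it was 0.13 (-0.03 to 0.29, limma, adjusted p = 0.336). The Cbfb start passed when diabetic baseline replicate 4 was left out (0.18, limma, adjusted p = 0.0497).

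**Figure D3:**
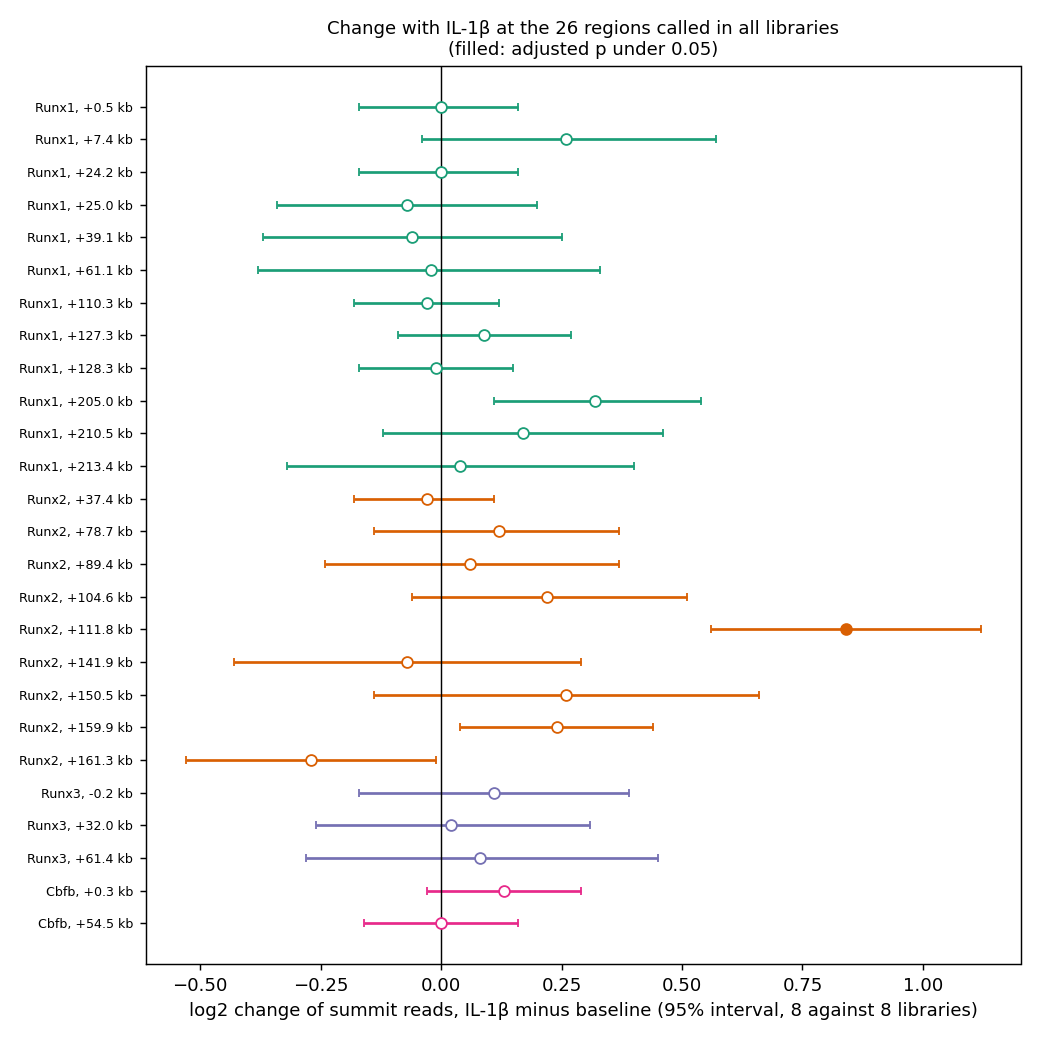
Log2 change of summit reads, IL-1β minus baseline, with 95% intervals at the 26 regions called in all libraries, ordered along each gene. The Runx2 region at 111.8 kb is the filled point at 0.84. The other 25 have open points, with adjusted p-values of 0.05 or more.

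Regions called in 12 to 15 libraries were fitted with uncalled values left missing, so a group with fewer calls is represented by its calling libraries. Of the 22 member regions in this class 3 rose and 1 fell, beside 8.45% past the test among 16021 such regions. Scaling by background was not run for this class, so the dependence of these calls on the scaling was not tested. The fallen one was in the Runx1 body, chr16:92640984-92641430, 184.9 kb from the distal start. It held 14.9, 16.8, 13.5 and 13.9 reads in diabetic IL-1β cells against 27.2, 21.5, 24.8 and 17.4 in diabetic baseline cells. In control cells the called values were 8.18, 14.3 and 11.4 with IL-1β (replicate 2 had no call) against 22, 20.9, 18.3 and 25.5 at baseline. Among the calling libraries no IL-1β value reached the lowest baseline value, and how often this held across the class was not counted. The log2 change was -0.79 ± 0.16 (limma, adjusted p = 0.00184). By phenotype it passed in control mice (-0.97 ± 0.23, limma, adjusted p = 0.0213) and not in diabetic mice.

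Beside the proximal start of Runx1, the short region chr16:92696641-92697004 averaged 33.9 ± 4.83 reads in 8 IL-1β libraries against 22.2 ± 3.16 in the 6 baseline libraries that called it. Its change was 0.61 ± 0.14 (limma, adjusted p = 0.007), while the larger region over that start did not pass. In Runx2, chr17:44718035-44718445 averaged 17.1 ± 3.85 reads in 6 IL-1β libraries against 8.54 ± 1.13 in 6 baseline libraries, a change of 0.99 ± 0.19 (limma, adjusted p = 0.00178). In Runx3, chr4:135160196-135160487 averaged 18.9 ± 4.20 reads in 7 IL-1β libraries against 12.9 ± 1.90 in 8 baseline libraries, a change of 0.51 ± 0.16 (limma, adjusted p = 0.044). None of the 4 covers an annotated start.

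Calls were compared next, since a region that appears or disappears has no value in some libraries. Of the 89 regions 22 were called in more IL-1β than baseline libraries, 34 in fewer and 33 in equal numbers. Over all regions 14.9% gained and 44.7% lost calling libraries. Calls depend on the length of the peak lists, for which these counts were not adjusted. IL-1β lists held 47255 to 64700 peaks in diabetic and 37543 to 67779 in control mice. Baseline lists held 49282 to 69150 and 52477 to 72525. By Fisher's exact test 1 member region had an unadjusted p under 0.05, beside 4.13% of all regions. It was chr17:44727731-44728082 in the Runx2 body, 86.7 kb from the start. It was called in 4 of 4 diabetic IL-1β libraries, with 18, 11.2, 15.9 and 19.0 reads, in 3 of 4 control IL-1β libraries, with 14.7, 15.5 and 11.4, and in 0 of 8 baseline libraries (Fisher's exact p = 0.0014, Benjamini-Hochberg adjusted p = 0.336). No region of the series passed after adjustment, so this difference did not hold up against the number of regions tested. The Runx1 region chr16:92823666-92823937, 2.3 kb inside the distal start, was called in 3 diabetic IL-1β libraries (22.4, 36.8 and 27.9 reads), in 1 control IL-1β library (31.9 reads) and in 0 of 8 baseline libraries (Fisher's exact p = 0.0769). In the other direction, the Runx2 regions at 31.3 kb and 64.1 kb were each called in 4 IL-1β libraries against 8 baseline libraries (Fisher's exact p = 0.0769 each). The Runx1 regions at 99.0 kb and 101.4 kb were called in 3 IL-1β against 7 baseline libraries and in 1 against 5 (Fisher's exact p = 0.119 each). For Runx3, the region at 51.1 kb was called in 1 IL-1β and 5 baseline libraries (Fisher's exact p = 0.119), and one 17.7 kb upstream of the distal start in 3 diabetic IL-1β libraries and no other (Fisher's exact p = 0.2). The region 33.1 kb into Runx3, beside its proximal start, was called in 1 IL-1β and 4 baseline libraries (Fisher's exact p = 0.282). Near Cbfb, the largest difference was at 55.3 kb, beyond the gene, with 0 IL-1β and 3 baseline libraries (Fisher's exact p = 0.2). All of these weak regions held fewer reads than the starts of Runx1 and Cbfb in every library that called them.

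**Figure D4:**
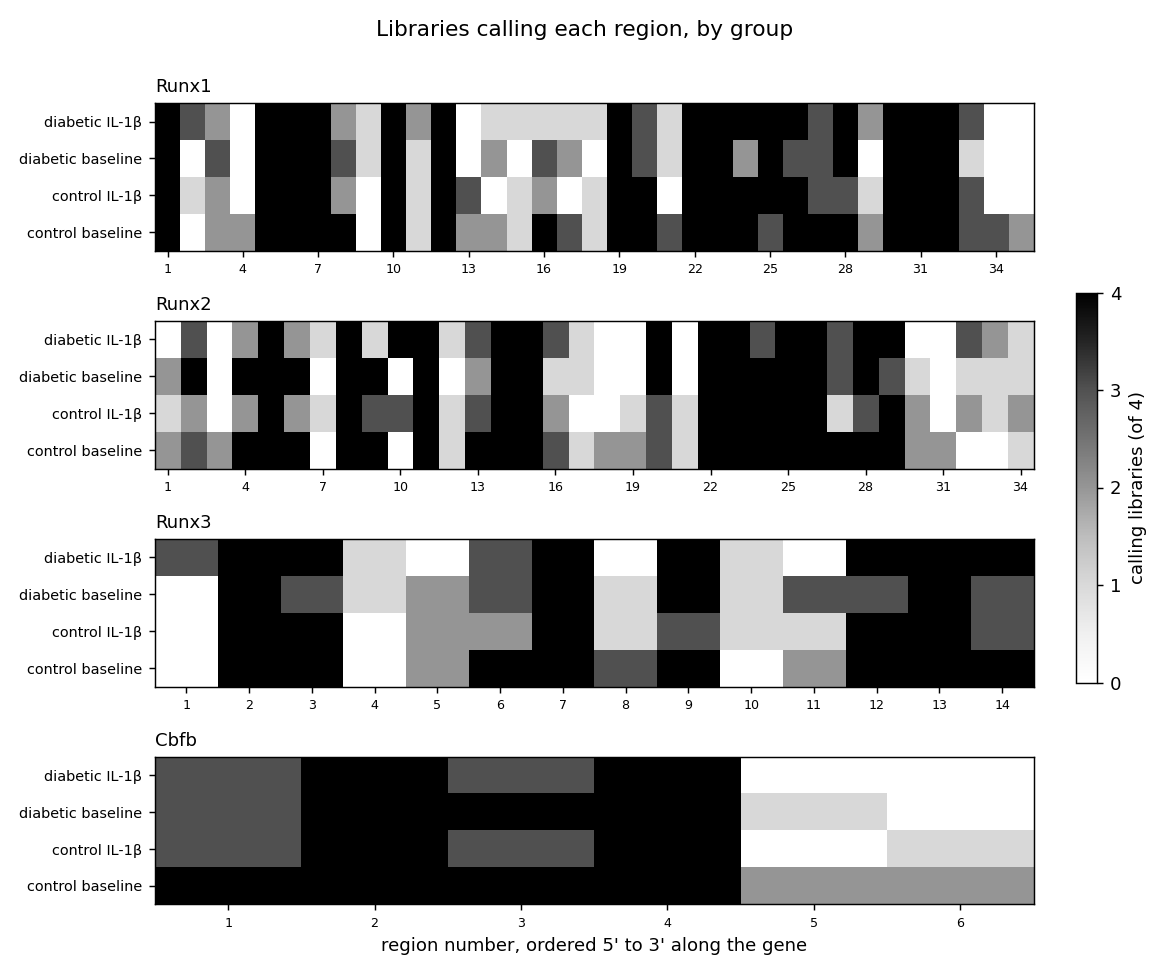
Number of libraries (of 4, from white for 0 to black for 4) calling each region, in diabetic IL-1β, diabetic baseline, control IL-1β and control baseline cells. Regions are numbered from the 5′ to the 3′ side of each gene. Region 10 of Runx2 is called in 4 and 3 IL-1β libraries and in none at baseline.

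Counted per gene and per 1000 called regions of a library, Runx1 had 0.452 ± 0.0327 after IL-1β and 0.414 ± 0.0519 at baseline (SD, n = 8 each, exact permutation p = 0.111). Runx2 had 0.403 ± 0.0582 and 0.375 ± 0.0254 (exact permutation p = 0.279). For Runx3 these were 0.173 ± 0.0191 and 0.162 ± 0.0271 (exact permutation p = 0.428), and for Cbfb 0.0744 ± 0.0212 and 0.0779 ± 0.012 (exact permutation p = 0.678). Adjusted over 14201 genes, the p-values were 0.375, 0.577, 0.696 and 0.846, and 16.9% of those genes were under 0.05 unadjusted and 0 adjusted.

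Diabetes was compared with control within each condition. No member region passed in baseline or IL-1β cells, and none of the 24955 regions did (0 by limma after adjustment, with 11.8% at baseline and 4.35% after IL-1β under 0.05 unadjusted). Of the 26 member regions 1 was higher and 1 lower at an unadjusted p under 0.05 in each condition. Over all regions 7.08% were higher and 4.72% lower at baseline, and 2.94% and 1.41% after IL-1β. The members' changes spanned -0.38 to 0.43 at baseline and -0.46 to 0.36 after IL-1β. Calls gave 0 member regions by Fisher's exact test, also unadjusted, beside 0.279% of all regions at baseline and 0.081% after IL-1β. With 4 against 4 libraries the smallest possible p is 0.0286, reached only by 4 calls against 0, so adjustment over all regions could hardly leave any call.

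The proximal start of Runx1 was the member region higher in diabetic cells in both conditions. At baseline it held 62.4, 72.0, 69.7 and 84.3 reads in diabetic cells against 58.1, 52.6, 56.9 and 56.9 in control cells, with no overlap. Groups did not overlap at 4.36% of all regions in this comparison. After IL-1β it held 71.1, 63.6, 67.5 and 74.7 reads in diabetic cells against 54.0, 56.9, 51.2 and 69.2 in control cells, with control replicate 4 inside the diabetic range. The log2 differences were 0.35 (95% interval 0.12 to 0.59, limma, adjusted p = 0.423) and 0.27 (0.03 to 0.50, limma, adjusted p = 0.97). Neither passed after adjustment. Mature neutrophil genes had a median difference of -0.29 at baseline over their 37 regions, beside 0.07 over all regions. The medians were -0.20 for granulocyte-monocyte progenitor, -0.12 for monocyte and macrophage and 0.18 for erythroid genes. The part of these lists in the member values was not tested. At the distal start of Runx1 the differences were -0.01 (-0.24 to 0.23) at baseline and -0.03 (-0.26 to 0.21) after IL-1β.

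Groups also stood apart at Runx1 regions that were lower in diabetic cells. At chr16:92800831-92801279 diabetic baseline cells had 19.6 to 23.3 reads against 24.3 to 34.3 in control baseline cells, a difference of -0.37 (95% interval -0.76 to 0.01, limma, adjusted p = 0.423). At chr16:92615298-92615764 diabetic IL-1β cells had 18.7 to 30.7 reads against 32.0 to 36.9 in control IL-1β cells, a difference of -0.46 (-0.86 to -0.05, limma, adjusted p = 0.97). Non-overlap was found at 3.58% of all regions in that comparison. The response to IL-1β did not differ between diabetic and control mice at any member or other region after adjustment (0 by limma, with 1.67% of all regions and 0 members under 0.05 unadjusted). For members, the difference of responses spanned -0.45 to 0.29.

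The profile of each factor gene over the 16 libraries, the mean of its centred log2 reads over shared regions, was compared with that of 6576 genes with at least 3 such regions. The highest Pearson correlations were 0.88 for Ppcdc and 0.87 for Madd and Nr1h3 with Runx1, 0.84 for Bcl3, 0.80 for Catip and 0.79 for Slc11a1 with Runx2, and 0.90 for Cuedc1 and 0.86 for Thbs3 with Runx3. Bcl3 is an atypical IκB protein and Slc11a1 a metal transporter of phagosomes. Among the factor genes the correlation was 0.40 for Runx1 and Runx3, 0.20 for Runx1 and Runx2 and 0.18 for Runx2 and Runx3. The median over all genes compared was 0.17 with Runx1, 0.02 with Runx2 and 0.12 with Runx3, so the value for Runx1 and Runx2 was near the middle of the Runx1 distribution. These are descriptions over 16 libraries that share depth and group, and the 3 regions of Runx3 make its profile the least precise of the factor genes. The profiles of Ppcdc, Madd and Nr1h3 also rest on 3 regions each. Whether the matching genes share regions with one another was not checked, so they may not be separate observations.

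Genes that work with RUNX proteins were counted as 4 lists over regions called in all libraries, to be read beside the 6.42% of all such regions that rose and the 3.4% that fell. DNA-binding partners had 55 regions, of which 1 rose and 1 fell. At Spi1, the PU.1 gene that RUNX1 helps to switch on, 1 of 4 regions passed, at 0.29 (limma, adjusted p = 0.0395). At Etv6, an ETS-family repressor, 1 of 12 passed, at -0.60 (limma, adjusted p = 0.0236). Corepressor genes had 39 regions with 2 risen and 1 fallen. At Sin3a, a scaffold of histone deacetylase complexes, 1 of 4 regions passed, at 0.24 (limma, adjusted p = 0.0403), and regions in the windows of Hdac3 and Ncor1, nearest to Diaph1 and Pigl, changed by 0.36 and -0.66 (limma, adjusted p = 0.0066 and 0.000149). Median changes were -0.03 for partners and 0.08 for corepressors.

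Coactivator and modifier genes had 42 regions with 7 risen and 2 fallen and a median of 0.06. At Smad3, a transducer of TGF-β signals, 1 of 9 regions passed, at 0.84 (limma, adjusted p = 0.000968), and the other 8 ran from -0.13 to 0.23. Cdk6, a cell cycle kinase, had 4 of the 7 risen regions and 1 of the fallen among its 11. A region in the window of Mapk3, nearest to Gdpd3, changed by 0.49 (limma, adjusted p = 0.0173). Target genes had 36 regions with 4 risen and 1 fallen and a median of 0.05. Nfe2, a regulator of platelet formation, had 3 risen regions of 5, the largest at 0.57 (limma, adjusted p = 0.000132). At Cdkn1a, the p21 inhibitor of the cell cycle, 1 of 4 regions passed, at 0.27 (limma, adjusted p = 0.0123), and the others ran from -0.35 to 0.14. The fallen region in the Pf4 window, nearest to Cxcl3, changed by -0.54 (limma, adjusted p = 0.00202). The targets Csf1r, Mpo, Elane, Pf4 and Cd4, among others, also stand in marker lists.

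The other marker lists were counted in the same comparison, beside the same 6.42% risen and 3.4% fallen among all regions. Granulocyte-monocyte progenitor genes had 14 shared regions with 3 risen and 1 fallen, and megakaryocyte genes 9 with 2 risen and 1 fallen. The risen megakaryocyte regions lay in the Gp1ba window, nearest to Pfn1 and Eno3, and the fallen one lay nearest to Cxcl3. B cell genes had 11 with 1 risen, and T and NK cell genes 13 with 1 risen. The risen B cell region lay in the Cd79a window, nearest to Arhgef1. Stem and progenitor (15), monocyte and macrophage (15), erythroid (17) and osteoblast and stroma genes (4) had none past the test. The 3 factor genes and Cbfb, with 1 of 26, stand beside these counts, and no difference between lists was tested.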

How the data were processed

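Each library was made with Tn5 from 50000 cells and read as 50-bp single ends, per the labels' protocols. Build mm10, MACS2 2.1.1, Bowtie2 2.2.6, edgeR, DiffBind 2.4.8, Trim Galore 1.8 and FastQC 0.11.3 are named, per the submitters' processing notes; their roles, Tn5 shifting and duplicate removal are not given in the sources used here. The authors deposited 1 peak list per library, with a score, a fold ratio over local background, a −log10 p, a −log10 q and a summit position for each peak; the lowest deposited −log10 q was 1.30. Score was not used, and −log10 q only ranked or filtered peaks. Positions are printed 1-based.

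With n reads at a summit and a local background λ, MACS2's fold is (n + 1) / (λ + 1) and its p is Poisson, so n and λ were solved from both (−log10 p met within 0.001 for 99.999% to 100% of summits per library). Overlapping or touching peaks were joined into 102496 regions. Reads at a region's highest summit were scaled to equal medians and, for the 24955 regions that every library called, fitted on the log2 scale in limma 3.58.1 (R 4.3.3) with 4 group means and a trended variance, and p-values were adjusted over all regions. Calls were tested per region with Fisher's exact test, and per gene with a two-sided exact permutation test within phenotype (4900 assignments, genes with at least 3 regions). The computations were tested on simulated data. Only 4 mouse samples per phenotype stand behind each p-value, no 2 libraries were identical, and intervals cover these samples only.

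Named regions are those within 1 kb of an annotated start, the 3 strongest per gene, those past a test, and the 3 per gene with the largest difference in calls; regions named beyond this rule (the 12-to-15-library calls, groups that do not overlap, and the 24.2 kb Runx1 region) were chosen after their values were seen. Some genes that the rule or the lists hold are not reported here. The members and the lists were chosen with earlier results of these data known. Alternatives were scaling by background, the fold in place of reads, regions in at least 12 libraries, a 100 bp overlap, −log10 q of at least 5, lists of equal length, a 10 kb window, a mouse block, and each library left out. Per the series design, both portions come from 1 mouse sample, so equal numbers within a phenotype mark a pair. Deviations of the portions from their group means correlated by 0.40, 0.19, -0.04 and 0.33 in diabetic and 0.42, 0.36, 0.01 and 0.07 in control mice.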

Additional observations from a re-analysis of the deposited data

Results flagged for a closer look

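At the proximal start of Runx3, chr4:135152205-135153163, diabetic IL-1β replicate 1 stood below the rest of its group, with 23.3 reads against 29.9 to 30.7 in the other 3. Downstream of Runx3, at chr4:135181823-135182278, control baseline replicate 2 held 12.5 reads against 23.6 to 24.5 in the other 3. These were the 2 samples far from their group among 52 groups of 4 checked at 13 regions, and chance gives about 5% of groups. Neither region passed any comparison.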

How the results depend on the processing

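Among counts and gene rates, 486 alternative values were classed as the same, 64 as moved and 2 as turned. A count was the same when it stayed close to the original, which includes counts of 0 that stayed 0. A gene rate was the same when it kept direction and call, whatever its size. Among changes at single named regions, 258 kept direction and call, 6 gained and 1 lost the call, and 19 turned. Background scaling gave 0 risen member regions over both phenotypes, in control and in diabetic mice, and 193 changed regions of the series in control and 107 in diabetic mice. It turned the changes with IL-1β to -0.15 and -0.03 at the Runx2 regions at 78.7 kb and 159.9 kb, to -0.16, -0.25 and -0.19 at the distal start, proximal start and 3′ side of Runx3, and to -0.14 at the Cbfb start. The median of all regions moved from 0.03 to -0.24, so all of these stood above that median except the proximal start of Runx3. The deposited fold in place of reads gave 1529 changed regions over both phenotypes against 2451 by reads, 302 against 686 in control, 107 against 706 in diabetic mice and 1 against 0 for diabetes at baseline. It gave 1 fallen member region (Runx2 at 161.3 kb, -0.35), 0 risen in control mice, and turned Runx1 at 110.3 kb to 0.01, the proximal start of Runx1 to 0.02, the Runx2 region at 37.4 kb to 0.09 and the distal start of Runx3 to -0.08. Regions in at least 12 libraries gave 3809 changed in all and 1170 in control mice, with 4 member regions risen and 1 fallen over both phenotypes, 2 and 1 in control and 2 risen in diabetic mice. With −log10 q of at least 5, 468 regions changed in diabetic mice and 6 member regions had an unadjusted Fisher p under 0.05; with lists of equal length 4 had. The mouse as a replicate block, whose pairing comes from the series design, gave 3694, 1382 and 1374 changed regions over both phenotypes, in control and in diabetic mice, and 2 risen member regions over both and 2 in diabetic mice; the addition was Runx1 at 205.0 kb each time, and no other call of a member region changed.

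Leaving out each library gave 1897 to 4248 changed regions over both phenotypes, the highest without diabetic baseline replicate 4, 312 to 1572 in control and 366 to 983 in diabetic mice. Member regions risen ran from 1 to 3 over both phenotypes, 0 to 1 in control and 0 to 2 in diabetic mice, and those with an unadjusted Fisher p under 0.05 from 1 to 6 for IL-1β and 0 to 1 for diabetes in either condition. The IL-1β difference in regions per 1000 ran from 0.0279 to 0.0492 for Runx1, 0.00851 to 0.0367 for Runx2, 0.00139 to 0.0166 for Runx3 and -0.00956 to 0.000473 for Cbfb, which turned without diabetic IL-1β replicate 3 or control IL-1β replicate 4 (0.000259). Changes with IL-1β that turned ran from -0.05 to 0.03 at the proximal start of Runx1, -0.05 to 0.01 at the Runx2 region at 37.4 kb, -0.07 to 0.07 at the proximal start and -0.03 to 0.16 at the 3′ side of Runx3. The causes of these shifts were not tested. Leaving out libraries and scaling by background were not run for regions called in 12 to 15 libraries. The median of 27.0 to 58.0 reads per library limits what can be seen at weak regions.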

Other observations

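The Runx2 body between 78.7 kb and 111.8 kb from the start held several regions with unlike reads or calls in IL-1β and baseline cells. This stretch was picked after its values were seen and is therefore given without a test of its own. Only the regions at 96.4 kb and 111.8 kb passed a test after adjustment. The region at 111.8 kb lost its call with scaling by background, which was not run at 96.4 kb. Along the gene, the calls were 4 IL-1β and 8 baseline libraries at 80.0 kb and 7 against 0 at 86.7 kb. The log2 changes were 0.12 at 78.7 kb, 0.06 at 89.4 kb, 0.99 at 96.4 kb, 0.22 at 104.6 kb and 0.84 at 111.8 kb. At 96.4 kb, the called values were 15.9, 16.8 and 21.5 reads in diabetic IL-1β cells against 9.35 and 7.21 in diabetic baseline cells. Control cells had 11.4, 21.4 and 15.5 reads with IL-1β against 7.85, 7.52, 9.48 and 9.81 at baseline. The region at 80.0 kb was the only one of the stretch with fewer calls after IL-1β.

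Region widths did not set the members apart by much: their median was 370 bp, and 373 bp over all regions. For regions called in all 16 libraries the medians were 622 bp and 692 bp.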
